A study of Homo sapiens with 4 samples.

Results

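The genes described here are the EGF family growth factors EREG, AREG, HBEGF, TGFA, BTC, EPGN, EGF and NRG1, in HCE cells with and without knockdown of the zinc finger transcription factor KLF7. The 8 genes were taken by name, with earlier results of these data known. For 7 of them the array had a feature annotated with that symbol alone, out of 18417 genes measured in this way. No feature carried the symbol AREG alone in the platform table used here, so AREG was not analysed here. RNA was measured in 2 samples of siKLF7 cells, which received an siRNA pool against KLF7, and in 2 samples of scramble control cells, which received a control siRNA pool. All 4 samples were HCE, which the labels give as a cell line of undifferentiated cells, in a series on the corneal epithelium. Both pools were given at 20 nM to wells of 100000 cells in Occulife medium, and RNA was taken 48 hours later, according to the labels. Separate cultures are not stated for the samples of either group, so a p-value here covers only their own spread, which may be technical.

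EGF family ligands are made as precursors anchored in the cell membrane, and ADAM metalloproteases cut them free. The freed ligands bind receptors of the ERBB family, and the best known of these, EGFR, drives proliferation and migration of epithelial cells through the RAS-ERK pathway. In the corneal epithelium this pathway is known for its part in wound closure. TGFA, EGF, EPGN and AREG act through EGFR, while HBEGF, BTC and EREG bind EGFR and ERBB4. NRG1 is a ligand of ERBB3 and ERBB4 rather than of EGFR.

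The sequences before the start sites of EREG, TGFA and EGF are shown because these 3 ligands passed the test against each control array taken alone, EREG and TGFA downward and EGF upward. KLF proteins bind CACCC boxes and GC boxes. Each line gives the 250 bases before the RefSeq start site (GRCh38.p14), read on the strand of the gene, with every CACCC or GGGCGG and their reverse complements GGGTG or CCGCCC in capitals. These are the plus strand of chr4:74364895-74365144 for EREG, the minus strand of chr2:70553827-70554076 for the outermost of 2 listed TGFA starts, and the plus strand of chr4:109912633-109912882 for EGF.
EREG: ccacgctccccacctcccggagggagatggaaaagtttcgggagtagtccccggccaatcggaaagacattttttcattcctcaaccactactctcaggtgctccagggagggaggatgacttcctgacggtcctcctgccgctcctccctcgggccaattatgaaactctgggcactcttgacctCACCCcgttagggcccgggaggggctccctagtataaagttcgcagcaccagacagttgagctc
TGFA: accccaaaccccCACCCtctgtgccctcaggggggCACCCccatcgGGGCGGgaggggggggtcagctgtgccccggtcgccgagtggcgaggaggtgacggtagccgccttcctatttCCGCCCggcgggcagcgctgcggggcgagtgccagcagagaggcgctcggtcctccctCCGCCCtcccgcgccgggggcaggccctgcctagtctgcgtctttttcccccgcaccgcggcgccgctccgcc
EGF: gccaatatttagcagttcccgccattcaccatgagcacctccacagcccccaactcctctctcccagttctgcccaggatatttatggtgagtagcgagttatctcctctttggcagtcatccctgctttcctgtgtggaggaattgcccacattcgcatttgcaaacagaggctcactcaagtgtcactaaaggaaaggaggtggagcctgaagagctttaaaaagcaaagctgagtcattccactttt

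The EREG window held 1 CACCC box, 64 bases before the start, and no GC box. The TGFA window held 2 CACCC boxes, both in its outer part, and 3 GC boxes. The window of the other TGFA start held 1 CACCC box and no GC box. The EGF window held no match to either motif. Of the other ligands, BTC had 4 CACCC boxes and no GC box, HBEGF had 5 GC boxes and no CACCC box, and EPGN had neither. The NRG1 window was not used here. Of 35116 RefSeq windows of the same length, 54.7% held a CACCC box and 42.6% a GC box, so a match is common. A match describes letters only, and no binding was measured.

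KLF7 had signals of 1492 and 1122 in siKLF7 cells, against 4649 and 2911 in scramble control cells, and the groups did not overlap. The log2 difference of KLF7 was -1.50 with both controls (SE 0.28, limma adjusted p = 0.639) and -1.16 from scramble control replicate 2 alone (SE 0.13, adjusted p = 1.2e-09). The arrays correlated across genes at r = 0.990 to 0.994 among siKLF7 replicates 1 and 2 and scramble control replicate 2. Scramble control replicate 1 stood apart, at r = 0.934 to 0.938 with the others. Of the 9 measured epithelial markers, 4 (KRT12, KRT3, KRT15 and EPCAM) were at least 2-fold lower in that array than the mean of the other 3, as were 551 of all 18417 genes. KRT3, a keratin of the corneal epithelium, was at a signal of 0.0055 there. The cadherin genes CDH3 and CDH1 stood higher in that array than the mean of the other 3, by 0.88 and 0.28 on the log2 scale. The summed epithelial marker signal was 41332 and 43491 in siKLF7 arrays, against 32499 and 38120 in scramble control replicates 1 and 2. Against scramble control replicate 2, KRT12, KRT3 and KRT15 stood higher in siKLF7 cells, by 0.81, 0.57 and 0.85 on the log2 scale. The other 6 epithelial markers ran from -0.14 for CDH3 to 0.27 for PAX6. Basal keratins KRT5 and KRT14 were bright on all 4 arrays, with signals of at least 8379. Fibroblast or keratocyte markers summed to 2978 and 2897 in siKLF7 arrays, against 3771 and 2548 in scramble control arrays. Of these, 1 of 10, THY1, was at least 2-fold higher in scramble control replicate 1 than the mean of the other 3. So were 389 of all 18417 genes. LUM stood 0.64 above scramble control replicate 2 on the log2 scale, and the other members ran from -0.29 for COL3A1 to 0.39 for VIM. Vascular endothelial markers (6 measured) summed to 1164 and 1244 in siKLF7 cells, against 1480 and 1348 in scramble control cells. Leukocyte markers (5 measured) summed to 1395 and 1412 in siKLF7 cells, against 1891 and 1563 in scramble control cells. Melanocyte markers (5 measured) summed to 828 and 901 in siKLF7 cells, against 954 and 936 in scramble control cells. Corneal endothelial markers (3 measured) summed to 4082 and 4179 in siKLF7 cells, against 3796 and 4213 in scramble control cells. Schwann markers (2 measured) summed to 441 and 411 in siKLF7 cells, against 387 and 415 in scramble control cells. The brightest member of each list on all 4 arrays was VIM, CDH5, CD68, SOX10, CA12 or MBP, in that order of lists. In siKLF7 replicate 1 VIM had 2005, CD68 990 and CA12 2956, so such sums rest largely on 1 gene. None of these markers of other cell types was below a signal of 16 on any array. That value is the pseudocount added to each signal before the log2, not a detection limit. PTPRC, LYZ, DCN and MLANA lay far below the median signal of every array. Signals above 16 therefore do not show that cells of these types were present. Each ligand is therefore given against both controls together and against each control array. The part of cell makeup or differentiation state in these values was not tested. In RNA from whole cultures, fewer cells of a type and less RNA per cell cannot be told apart.

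The ligands did not share 1 direction. EREG and TGFA were lower in siKLF7 cells than in either control and EGF was higher than in either, each with an adjusted p under 0.05 against each control alone but not with 4 arrays. HBEGF, BTC, EPGN and NRG1 did not pass the test against scramble control replicate 2. The share of all genes that passed both single-control tests was not counted. The values on each array are plotted for KLF7 and the 7 ligands.

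**Figure D1:**
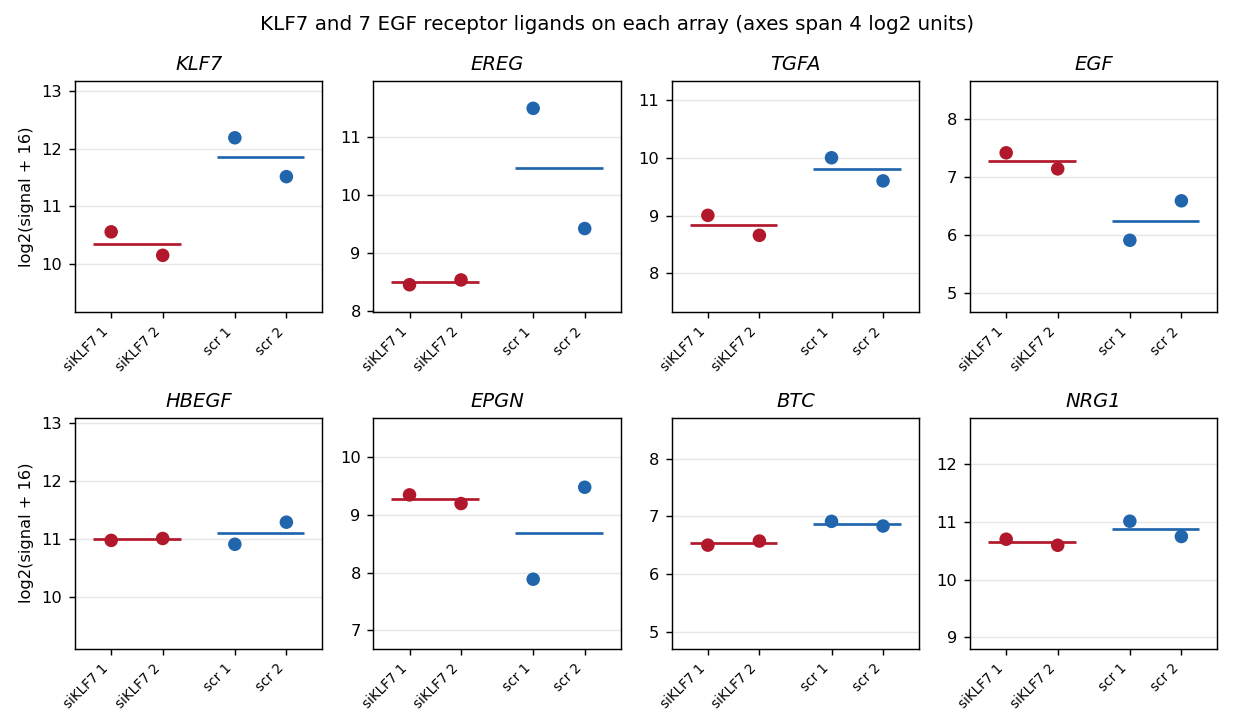
Level of KLF7 and each ligand on each array, as log2(signal + 16); red points are the siKLF7 arrays, blue points the scramble control (scr) arrays, and lines the group means of 2 arrays. Each panel spans 4 log2 units. EREG and TGFA lie lower in both siKLF7 arrays than in both controls, EGF lies higher, and EPGN lies between the 2 controls.

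EREG encodes epiregulin, a ligand that epithelial cells make in response to injury and that acts on the cell itself and its neighbours. Its signal was 333 and 354 in siKLF7 cells, against 2886 and 670 in scramble control cells. The siKLF7 arrays were close together and both lay below both controls, while the controls differed from each other by 2.08 on the log2 scale. Against scramble control replicate 2, EREG fell to 52.4% of the control level (log2 -0.93, SE 0.16, adjusted p = 6.3e-05). Against scramble control replicate 1 it fell to 12.4% (log2 -3.01, SE 0.16, adjusted p = 5.2e-31). With all 4 arrays the log2 difference was -1.97 (SE 0.70, adjusted p = 0.639), which did not pass. The spread between the 2 controls was thus larger than the difference from scramble control replicate 2.

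TGFA encodes transforming growth factor alpha, an EGFR ligand that keratinocytes use as an autocrine growth signal. Its signal was 497 and 388 in siKLF7 cells, against 1008 and 760 in scramble control cells. Both siKLF7 arrays lay below both controls, and the 2 controls were 0.40 apart on the log2 scale. TGFA fell to 58.7% of scramble control replicate 2 (log2 -0.77, SE 0.16, adjusted p = 0.0019) and to 44.5% of scramble control replicate 1 (log2 -1.17, SE 0.16, adjusted p = 5.2e-09). With 4 arrays the mean signal was 443 ± 77.4 in siKLF7 cells and 884 ± 175 in scramble control cells (SD, n = 2 each), and the log2 difference of -0.97 (SE 0.22, adjusted p = 0.639) did not pass. Of the 3 ligands that passed against both single controls, TGFA had the closest log2 differences from the 2 controls.

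EGF encodes the founding ligand of the family, best known as a soluble factor supplied by tears and other secretions. Its signal was 155 and 125 in siKLF7 cells, against 44.0 and 80.3 in scramble control cells. Both siKLF7 arrays lay above both controls. EGF rose 1.62-fold over scramble control replicate 2 (log2 0.69, SE 0.16, adjusted p = 0.0070) and 2.59-fold over scramble control replicate 1 (log2 1.38, SE 0.16, adjusted p = 1.8e-11). With 4 arrays the log2 difference was 1.03 (SE 0.26, adjusted p = 0.639) and did not pass. EGF was among the dimmest 25% of genes, where the pseudocount of 16 shrinks the difference. The log2 difference from scramble control replicate 2 was 0.79 with a pseudocount of 1 and 0.61 with a pseudocount of 32.

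HBEGF encodes a heparin-binding ligand that is shed at epithelial wound edges. Its signal was 1994 and 2040 in siKLF7 cells, against 1903 and 2485 in scramble control cells. The siKLF7 arrays lay between the controls, so the groups overlapped. Its log2 difference was -0.30 from scramble control replicate 2 (95% interval -0.54 to -0.06, adjusted p = 0.265) and 0.083 from scramble control replicate 1 (-0.16 to 0.32, adjusted p = 0.663). The sign thus turned with the control array, and neither value passed. With 4 arrays it was -0.11 (SE 0.17, adjusted p = 0.804).

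EPGN encodes epigen, a ligand expressed in stratified epithelia. Its signal was 636 and 571 in siKLF7 cells, against 221 and 698 in scramble control cells. Here too the siKLF7 arrays lay between the controls, which were 1.59 apart on the log2 scale. EPGN was not called against scramble control replicate 2 (log2 -0.21, 95% interval -0.52 to 0.11, adjusted p = 0.646). It stood higher than scramble control replicate 1 and passed there (log2 1.39, SE 0.16, adjusted p = 1.6e-11). With 4 arrays the log2 difference was 0.59 (SE 0.54, adjusted p = 0.681).

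BTC encodes betacellulin, and its feature was among the dimmest 25% of genes. The BTC signal was 74.6 and 79.1 in siKLF7 cells, against 104 and 97.9 in scramble control cells. All siKLF7 values were below all control values, by small amounts. The log2 difference was -0.30 from scramble control replicate 2 (95% interval -0.62 to 0.03, adjusted p = 0.496) and -0.38 from scramble control replicate 1 (-0.70 to -0.06, adjusted p = 0.0741), and neither passed. With 4 arrays it was -0.34 (SE 0.11, adjusted p = 0.639), which did not pass.

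NRG1 encodes neuregulin 1, whose receptors are ERBB3 and ERBB4. Its signal was 1646 and 1529 in siKLF7 cells, against 2048 and 1701 in scramble control cells, again with no overlap. The log2 difference was -0.10 from scramble control replicate 2 (95% interval -0.36 to 0.16, adjusted p = 0.798), which did not pass. Against scramble control replicate 1 NRG1 fell by 0.37 (SE 0.13, adjusted p = 0.0228). With 4 arrays the log2 difference was -0.23 (SE 0.15, adjusted p = 0.639). A second NRG1 feature gave 1135 and 1091 in siKLF7 cells, against 1712 and 1293 in scramble control cells, the same order of arrays.

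**Figure D2:**
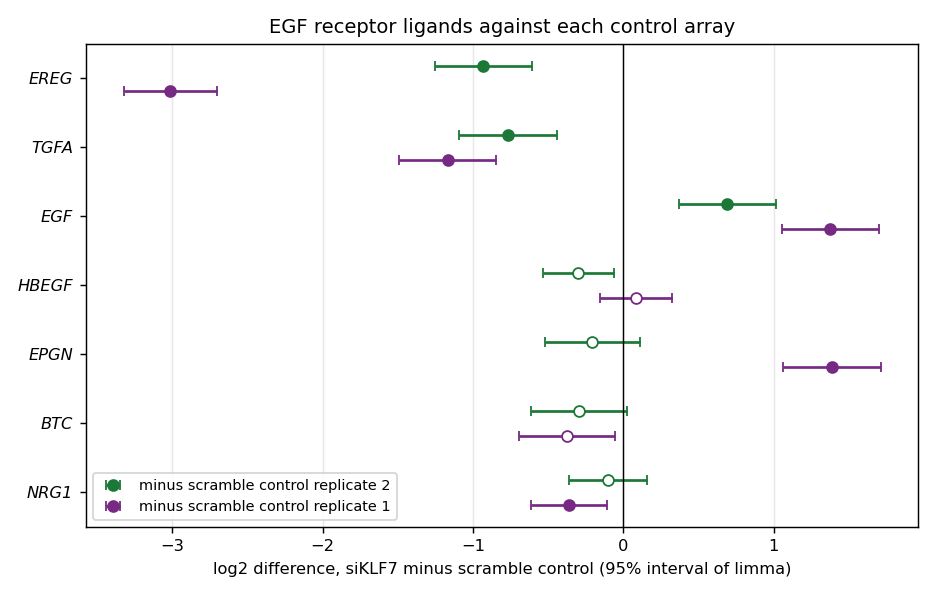
Log2 difference of each ligand, siKLF7 minus scramble control replicate 2 (green) or replicate 1 (purple), with the 95% interval of limma; filled points had an adjusted p under 0.05. EREG and TGFA lie below 0 and EGF above 0 against both controls, while EPGN lies at -0.21 against one and 1.39 against the other.

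Between siKLF7 arrays the ligand furthest apart on the log2 scale was TGFA, at signals of 497 and 388. Between scramble control arrays EREG, EPGN and EGF were furthest apart, with scramble control replicate 1 at 2.08, -1.59 and -0.68 relative to replicate 2. Set against the mean of the other 3 arrays, scramble control replicate 1 stood at 2.70 for EREG, -1.45 for EPGN and -1.14 for EGF, and under 2-fold apart for the other 4 ligands.

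Counts over the ligands were read against all genes. The ligands were chosen with earlier results of these data known, so the counts only describe them. With 4 arrays, 0 of 7 ligands passed limma's adjusted threshold of 0.05, as did 0% of the 18417 genes. At an unadjusted p under 0.05 there were 4 of 7 (5.8% of all genes), with EGF higher (1.9%) and EREG, TGFA and BTC lower (3.9%). With scramble control replicate 2 as the only control, 3 of 7 passed, where 1.57% of all genes did. Of these, 1 rose and 2 fell, where 0.885% of all genes rose and 0.69% fell. With scramble control replicate 1 as the only control, 5 of 7 passed, where 26.8% of all genes did, and 2 rose and 3 fell, where 13.4% of all genes moved each way. Both siKLF7 arrays lay below both controls for 4 ligands (28.9% of all genes) and above both for 1 (16.3%), so 5 of 7 did not overlap, where 45.2% of all genes did not. Median log2 differences of the 7 ligands were -0.23 with both controls, -0.30 from scramble control replicate 2 and -0.37 from scramble control replicate 1, beside -0.05, -0.04 and -0.06 over all genes. The single-control comparisons share both siKLF7 arrays, with the lone control assumed to vary alike. Their spread comes mostly from that pair over all genes, as limma's prior, and little from the ligand's own 2 values. On the log2 scale the siKLF7 SD was 0.059 for EREG, 0.24 for TGFA and 0.20 for EGF. Each of these 3 had an SE of 0.16 against scramble control replicate 2. That SE thus does not measure the spread of the ligand itself. An exact two-sided permutation test of 2 arrays against 2 cannot give a p below 0.333, and gave that value for EREG, TGFA, EGF, BTC and NRG1.

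Among the receptors, EGFR had signals of 3018 and 2696 in siKLF7 cells, against 3865 and 3174 in scramble control cells, and its log2 difference from scramble control replicate 2 was -0.15 (SE 0.11, adjusted p = 0.611). ERBB2, the partner receptor without a known ligand of its own, stood at 561 and 594 in siKLF7 cells, against 569 and 577 in scramble control cells. ERBB3, which binds neuregulins, stood at 419 and 383 in siKLF7 cells, against 144 and 415 in scramble control cells. ERBB4 was dim, at 64.7 and 66.2 in siKLF7 cells, against 67.4 and 73.2 in scramble control cells. Log2 differences of the 4 receptors ran from -0.15 to 0.0015 against scramble control replicate 2. Against scramble control replicate 1 they ran from -0.44 for EGFR to 1.38 for ERBB3. The other neuregulins NRG2, NRG3 and NRG4 had both siKLF7 values under the lower control value, as did 28.9% of all genes. With 4 arrays 0 of 3 passed the threshold, as did 0% of all genes. NRG3 differed by -0.35 and NRG4 by -0.17 from scramble control replicate 2.

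Genes that release the ligands differed from scramble control replicate 2 by -0.27 to 0.43 on the log2 scale. ADAM17, the main protease that frees EREG, TGFA and HBEGF, had 789 and 725 in siKLF7 cells, against 736 and 747 in scramble control cells (log2 0.02, 95% interval -0.29 to 0.32). ADAM10, which frees EGF and BTC, had 2431 and 2082 in siKLF7 cells, against 2497 and 2104 in scramble control cells. The median of the 15 shedding and export genes was -0.03 from scramble control replicate 2. The values furthest from 0 were FRMD8, a partner of the inactive rhomboids that carry ADAM17, at 0.43, which did not pass, and ADAM15 at -0.27. Against scramble control replicate 1 the 15 genes ran from -3.64 to 0.73. Scramble control replicate 1 as the only control gave 2 of 15 higher and 6 lower, beside 13.4% of all genes each way.

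The 17 feedback inhibitors of the receptor and of ERK differed from scramble control replicate 2 by -0.20 to 0.46, with a median of 0.04. SPRY2, a RAS-ERK inhibitor that ERK signalling itself induces, had 842 and 799 in siKLF7 cells, against 348 and 593 in scramble control cells (log2 0.46 from scramble control replicate 2, adjusted p = 0.145). LRIG3 stood at 0.44 (adjusted p = 0.142). Values for both genes lay above both controls, as did those of 16.3% of all genes, without passing against scramble control replicate 2. Their log2 differences from scramble control replicate 1 were 1.20 for SPRY2 and 0.80 for LRIG3. ERRFI1, which binds and blocks EGFR, had 2480 and 2542 in siKLF7 cells, against 1334 and 2533 in scramble control cells. LRIG1, which promotes EGFR breakdown, had 700 and 744 in siKLF7 cells, against 772 and 653 in scramble control cells. Set against scramble control replicate 1, 4 of 17 rose and 3 fell, where 13.4% of all genes did so each way. Among adaptors and the RAS-ERK relay, the 13 measured genes ran from -0.17 for MAP2K1 to 0.22 for PIK3CB against scramble control replicate 2. From scramble control replicate 1, 1 of 13 differed upward and 4 downward past the threshold, beside 13.4% of all genes each way.

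Transcripts that ERK signalling induces had 1 of 19 members past the threshold against scramble control replicate 2. MYC, a growth-promoting transcription factor, had 3016 and 2779 in siKLF7 cells, against 3775 and 3790 in scramble control cells. It fell by 0.39 from scramble control replicate 2 (SE 0.10) and stood at -0.38 against scramble control replicate 1. With 4 arrays the log2 difference of MYC was -0.38 (SE 0.11, limma adjusted p = 0.639), which did not pass. The other values furthest from 0 were ATF3 at -0.48 (adjusted p = 0.147) and IER2 at -0.46 (adjusted p = 0.173). In both genes the siKLF7 values lay between the controls. In the comparison with scramble control replicate 1, 7 of 19 rose and 6 fell, again beside 13.4% of all genes each way. The 71 pathway genes other than the ligands had 1 call against scramble control replicate 2, that of MYC, where 1.57% of all genes were called. There were 35 calls against scramble control replicate 1, with 15 higher and 20 lower, where 26.8% of all genes were called.

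**Figure D3:**
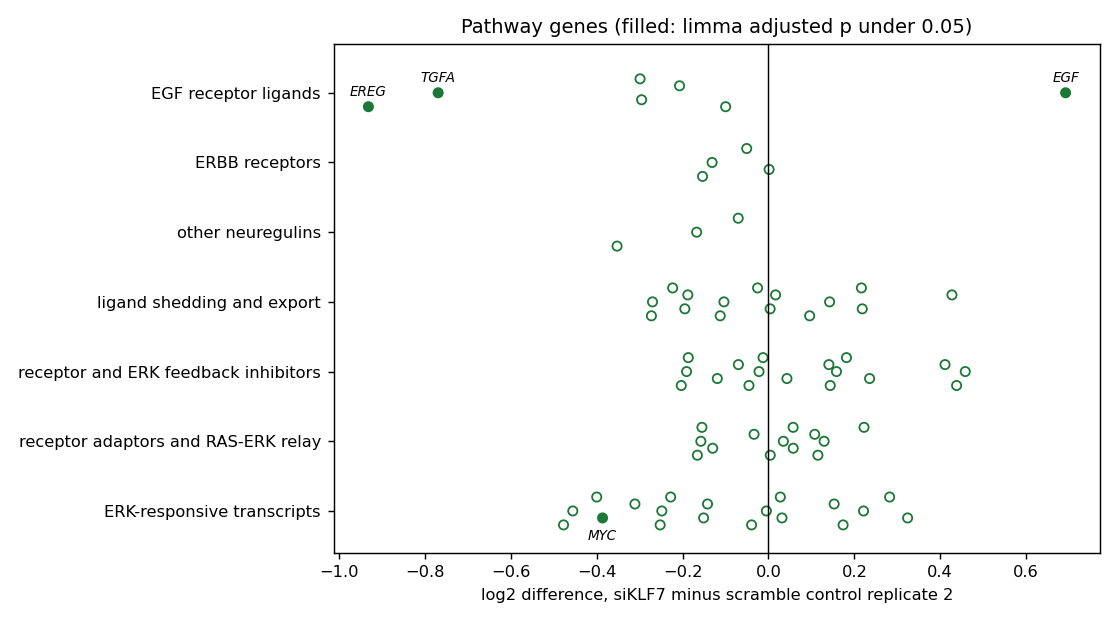
Log2 difference, siKLF7 minus scramble control replicate 2, for each measured gene of the ligand list and the 6 pathway lists; filled points had a limma adjusted p under 0.05. EREG at -0.93, TGFA at -0.77 and EGF at 0.69 are the 3 values furthest from 0, and MYC is the other filled point.

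EPGN, EREG, AREG and BTC are neighbours on chromosome 4 in the RefSeq order of protein-coding genes, between MTHFD2L and PARM1. EREG fell by 0.93 from scramble control replicate 2, while EPGN on one side stood at -0.21 and BTC beyond AREG at -0.30. MTHFD2L, a mitochondrial folate enzyme, had 475 and 464 in siKLF7 cells, against 623 and 377 in scramble control cells. PARM1 had 103 and 114 in siKLF7 cells, against 104 and 103 in scramble control cells. The chemokine gene CXCL2, next to MTHFD2L, had 499 and 552 in siKLF7 cells, against 678 and 560 in scramble control cells. Between the controls, EREG was 2.08 higher and EPGN 1.59 lower in scramble control replicate 1 than in replicate 2 on the log2 scale. Next to EGF on the same chromosome, ELOVL6, a fatty acid elongase, rose by 0.53 over scramble control replicate 2 (adjusted p = 0.0444). ELOVL6 had 1092 and 1006 in siKLF7 cells, against 1537 and 721 in scramble control cells, so the siKLF7 values lay between the controls. Both neighbours of TGFA missed the threshold, with FAM136A at 0.10 and ADD2 at -0.33.

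**Figure D4:**
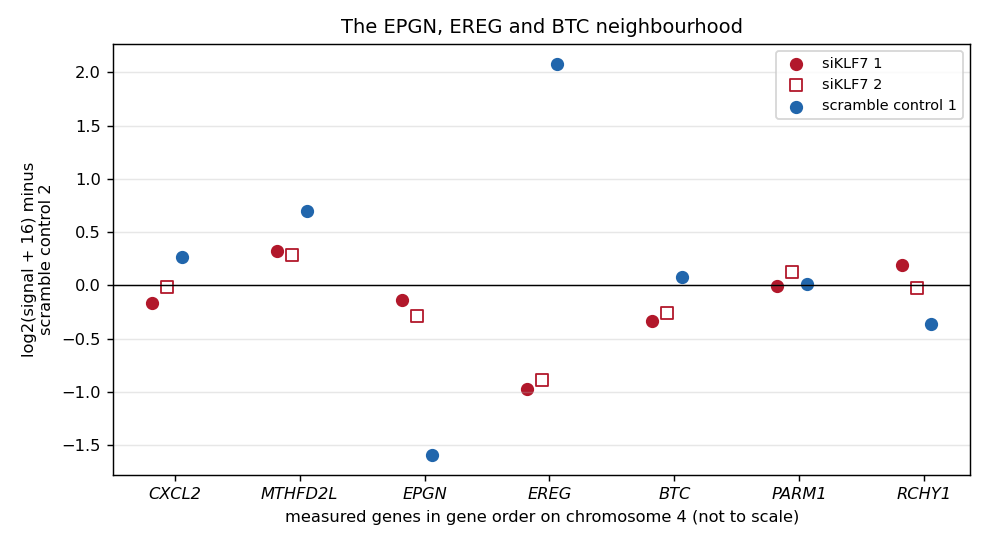
Level of each measured gene around EREG on chromosome 4, in gene order, as log2(signal + 16) minus that of scramble control 2 (the line at 0); red points are the siKLF7 arrays and blue points scramble control 1. EREG is lower in both siKLF7 arrays and 2.08 higher in scramble control 1, while EPGN beside it is 1.59 lower in scramble control 1.

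Other genes shared the array profiles of the 4 ligands that spanned at least 1 log2 unit. Likeness was the root mean square difference between profiles centred on their mean over the 4 arrays, in log2 units. EREG was closest to IL1B, an inflammatory cytokine (0.22), and FOLR3, a folate-binding protein (0.25). IL1B had 1156 and 1072 in siKLF7 cells, against 8070 and 1486 in scramble control cells, and stood at -0.41 from scramble control replicate 2 (adjusted p = 0.150). TGFA was closest to LYPLA1, an acyl-protein thioesterase, and PIGZ (0.10 and 0.11). LYPLA1 fell by 0.73 from scramble control replicate 2 (adjusted p = 0.00042), with 1056 and 990 in siKLF7 cells, against 2497 and 1705 in scramble control cells. EPGN was closest to AHR, the aryl hydrocarbon receptor, and EPHB3, an ephrin receptor (0.04 each). EGF was closest to the cyclin gene CCNE2, active at entry into S phase (0.06), and PBOV1 (0.07). CCNE2 had 396 and 361 in siKLF7 cells, against 133 and 234 in scramble control cells, an order of arrays like that of EGF. With 4 arrays, 1 of which stood apart, such likeness is a description of these arrays.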

How the data were processed

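Total RNA of 4 HCE samples was measured on whole-transcript arrays. The deposited values are linear array intensity, 1 column per array. Affymetrix Expression Console 1.1.1 and PLIER 2.0 are named per the submitters' processing notes, and any scaling between arrays is not given in the sources. Median signal was 190, 185, 187 and 194 for siKLF7 replicates 1 and 2 and scramble control replicates 1 and 2. An unequal array scale would shift the log2 value of each gene, and that of a dim gene less because of the pseudocount.

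Of 33297 features, 19460 had 1 listed symbol. The feature with the highest mean was taken per gene, leaving 18417 genes. Values were analysed as log2(signal + 16), so a fold change of a dim gene is understated. Differences were fitted over all genes in limma 3.58.1 (R 4.3.3), by lmFit and by eBayes with its trend on mean level, and Benjamini-Hochberg adjustment at 0.05. Residual degrees of freedom were 2 with 4 arrays and 1 against a single control, with prior degrees of freedom of 2.63, and 74.2 (replicate 2) or 86.2 (replicate 1). The fits were tested on simulated data. The number of arrays limits the precision.

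The ligands, 6 pathway lists and 7 marker lists were chosen with earlier results of these data known. Named were all ligands, KLF7, the ERBB receptors, ADAM10, ADAM17, ERRFI1, LRIG1, list members that passed with both controls or against scramble control replicate 2, and the 2 others per list that differed most from it. Genes shown for likeness and as neighbours followed fixed rules. IL1B, LYPLA1 and CCNE2 were picked among these for their values, and so were the neighbours given. Pathway lists had 71 of 78 members measured. Alternatives changed the scaling, dim gene filter, prior, feature rule, pseudocount, threshold, replicate block and arrays used. Promoter windows are from RefSeq, without the bases after the start. Figures used matplotlib 3.10.9.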

Additional observations from a re-analysis of the deposited data

How the results depend on the processing

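With 4 arrays 0 genes and 0 ligands passed, and leaving out each array in turn gave 0 to 4935 genes and 0 to 5 ligands. Without scramble control replicate 1 there were 290 genes and 3 ligands, and without scramble control replicate 2 there were 4935 genes and 5 ligands. Leaving out each array, the log2 difference of EPGN then ran up to 1.39 without scramble control replicate 2 and reversed to -0.21 without scramble control replicate 1, and that of HBEGF was -0.30 without scramble control replicate 1 and reversed to 0.083 without scramble control replicate 2. Against scramble control replicate 2, quantile normalization gave 478 genes and a prior with no trend 172, beside 290, and the cause was not tested. Median centring gave 276 genes higher and 143 lower against that control, beside 163 and 127. EREG, TGFA and EGF kept their direction and their calls against that control under each setting fitted on those 3 arrays, except that leaving out the dimmest 25% or 50% of genes removes EGF. Their log2 differences were -0.96 to -0.90 for EREG (adjusted p up to 0.0011), -0.80 to -0.74 for TGFA (up to 0.0151) and 0.61 to 0.79 for EGF (up to 0.0293). Against scramble control replicate 1 the NRG1 call was lost with no trend in the prior (adjusted p = 0.0807, range 0.0042 to 0.0807). Treating the replicate number as a block left 0 genes and 0 ligands past the threshold. Deviations from the group means of samples with the same number correlated at -0.04. Scramble control replicate 1 stood apart, so this value cannot tell whether the number marks a pairing. The labels give the number only, and the main fits used no block. With 1 control array per comparison, the spread of the control itself was not measured.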
